A study of Mus musculus with 41 samples.

Results

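Peaks of 4 histone marks were examined at 9 interferon response genes of the mouse, out of 21755 protein-coding genes annotated on chromosomes 1 to 19 and X of the build mm10. The genes are the transcription factors Irf1, Irf7 and Stat2 and the effectors Isg15, Ifit1, Ifit2, Ifit3, Rsad2 and Oasl2, taken by name. The rule uses no measured value, but the genes were chosen with earlier results of these data known. All 9 were found in the annotation. A gene counted as marked when a called peak overlapped its promoter, 2000 bp on each side of any annotated transcription start site (TSS), and peaks in the gene body alone were recorded separately.

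Interferons are secreted proteins released upon infection or tissue damage. They bind receptors at the cell surface, and receptor-bound kinases then activate Stat2, which acts with Irf9 on the interferon-stimulated response element (ISRE) of target promoters, while the response to interferon gamma runs mainly through another element, the gamma-activated sequence. Irf1 and Irf7 are themselves induced and reinforce the response, and the effectors restrict viruses. Macrophages both release and answer interferons, and many cells keep some of these genes at a basal level without infection.

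CUT&Tag, in which an antibody guides a transposase to cut DNA beside a modified histone, was used on lactylated lysine 18 of histone H3 (H3K18la), on H3K27ac, a mark of active promoters and enhancers, on H3K4me3, a mark of active promoters, and on H3K27me3, a mark of repressed chromatin. The 41 samples fall into 24 groups of a cell type and a mark. Of the groups, 17 have 2 samples and 7 have 1 sample (all those of BMDM and MB, and H3K27ac of PIM and mESC-ser), and each has a single peak list because replicates were merged before peaks were called. No value of a list therefore has a replicate error, and no comparison of 1 list with another could be tested.

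All samples carry the label control and no group was given an interferon or an infection. The bone marrow-derived macrophages (BMDM) are C57BL/6 marrow cells grown with M-CSF and harvested unstimulated. The post-ischemia macrophages (PIM) are C57BL/6 macrophages sorted as CD45+CD11b+F4/80+CD64+ cells from digested calf muscle after ligation of the leg artery, so the 2 macrophage types differ in origin, isolation and environment at once. Gastrocnemius muscle (GAS) is whole C57BL/6 tissue and holds every cell type of muscle. Primary C57BL/6 myoblasts (MB) and the myotubes (MT) differentiated from them are cultures. Adipocyte nuclei (ADIPO) came from epididymal white fat of AdipoCre-NuTRAP mice, where Cre driven in adipocytes labels the nuclei, and were bound to streptavidin beads. The stem cells are the E14 line kept with LIF, called mESC-ser when the medium held serum and mESC-2i when it was 2i, and they entered CUT&Tag as whole cells where all others entered as nuclei. The mice are described as adult females in the sources used here, those that gave the epididymal fat included.

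The lists held 11002 to 36813 peaks and covered 22.6 to 197 Mb. Among the H3K18la lists, BMDM covered 22.6 Mb and PIM 68.9 Mb. Signal in the lists is not scaled for sequencing depth, so a peak is described here by its width and by its rank percentile, the share of peaks of its own list with a smaller total signal. SEACR kept the strongest 1% of regions in each list, so a gene without a peak may still carry the mark below that limit. A weaker peak in a list can stand for fewer marked cells or for less mark per cell, which cannot be told apart. All 6 macrophage markers examined had H3K18la promoter peaks in BMDM and in PIM, and none of the 4 muscle fibre or 3 fibroblast markers had one. Both lists also held peaks at 2 of 4 endothelial markers (Pecam1 and Cdh5), at 1 of 4 T and B cell markers (Ms4a1) and at 1 of 2 adipocyte markers (Adipoq), so a peak at a single marker does not identify a cell type here. GAS had H3K18la at 4 of 4 muscle fibre, 4 of 4 endothelial and 3 of 3 fibroblast markers and at 2 of 6 macrophage markers, Csf1r and Spi1. ADIPO had it at 2 of 2 adipocyte markers, at 2 of 6 macrophage markers (Spi1 and Cd68), at 3 of 5 neutrophil markers (S100a8, Mpo and Elane) and at 2 of 3 fibroblast markers. MB had it at Myod1 alone of the 4 muscle fibre markers, MT at 4 of 4 with 3 of 6 macrophage markers (Csf1r, Spi1 and Cd68), and both stem cell lists at 3 of 3 stem cell markers.

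Promoter sequences that match the letters of interferon response elements are shown first, and a match alone shows no binding. Whether a peak lay over the matches is given below for the 6 promoters printed here. The 250 bases before the first RefSeq start of each gene (GRCm38.p6, the assembly of mm10) were searched on both strands for the ISRE core GAAANNGAAA and for the gamma-activated sequence TTCNNNGAA, which did not overlap in any of the 9 windows. An ISRE core was present in 2.98% of all 32851 RefSeq promoters and in 5 of the 9 genes, with 9 matches in all. A gamma-activated sequence was present in 7.02% of promoters and in 2 of the 9 genes, Irf1 and Ifit2. The windows of Irf7 and Oasl2 held neither set of letters. The 6 promoters below are written 5′ to 3′ along the gene with the matches in capitals. The first 4 are effectors with ISRE cores, Stat2 is the one regulator with an ISRE core and Irf1 has the gamma-activated sequence.
Isg15 (chr4:156200819-156201068, minus strand): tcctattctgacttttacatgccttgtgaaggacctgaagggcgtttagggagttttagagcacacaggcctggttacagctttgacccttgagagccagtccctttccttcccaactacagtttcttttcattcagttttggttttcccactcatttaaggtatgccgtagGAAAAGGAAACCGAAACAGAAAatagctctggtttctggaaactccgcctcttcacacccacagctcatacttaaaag
Ifit1 (chr19:34640639-34640888, plus strand): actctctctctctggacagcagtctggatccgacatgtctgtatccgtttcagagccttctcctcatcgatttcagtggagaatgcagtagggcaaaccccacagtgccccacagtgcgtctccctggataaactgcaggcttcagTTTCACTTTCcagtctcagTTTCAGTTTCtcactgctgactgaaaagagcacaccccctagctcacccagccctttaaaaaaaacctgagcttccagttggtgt
Ifit3 (chr19:34583279-34583528, plus strand): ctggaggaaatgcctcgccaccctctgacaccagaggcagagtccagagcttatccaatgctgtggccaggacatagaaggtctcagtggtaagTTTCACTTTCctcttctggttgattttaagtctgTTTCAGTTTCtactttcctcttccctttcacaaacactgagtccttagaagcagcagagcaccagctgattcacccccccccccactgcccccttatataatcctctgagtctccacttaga
Rsad2 (chr12:26456453-26456702, minus strand): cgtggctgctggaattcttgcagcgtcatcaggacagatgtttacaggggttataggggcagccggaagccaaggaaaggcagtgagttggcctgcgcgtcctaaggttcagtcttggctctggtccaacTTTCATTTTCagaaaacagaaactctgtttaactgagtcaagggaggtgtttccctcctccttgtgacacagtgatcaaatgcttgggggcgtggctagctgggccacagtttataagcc
Stat2 (chr10:128270248-128270497, plus strand): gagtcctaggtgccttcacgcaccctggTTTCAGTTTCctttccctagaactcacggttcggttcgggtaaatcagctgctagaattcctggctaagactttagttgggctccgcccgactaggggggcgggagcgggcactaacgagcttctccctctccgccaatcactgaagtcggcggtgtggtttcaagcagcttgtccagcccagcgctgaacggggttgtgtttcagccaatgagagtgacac
Irf1 (chr11:53769764-53770013, plus strand): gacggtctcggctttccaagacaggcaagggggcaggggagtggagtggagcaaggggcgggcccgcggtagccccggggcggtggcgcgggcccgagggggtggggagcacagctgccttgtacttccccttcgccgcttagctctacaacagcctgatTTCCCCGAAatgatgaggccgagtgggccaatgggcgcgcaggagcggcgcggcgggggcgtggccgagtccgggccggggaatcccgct
In Isg15 there were 3 overlapping cores, which began 78, 72 and 66 bases before the start. Ifit1 had cores 104 and 85 bases before the start, Ifit3 had cores 156 and 122 bases before it, Rsad2 had 1 at 120 bases and Stat2 had 1 at 222 bases. Outside Isg15 the cores read on the strand opposite to the gene, so the letters above show their reverse complement. The Irf1 gamma-activated sequence began 90 bases before the start.

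Base composition set Irf1 and Stat2 apart from the effectors. The ratio of observed to expected CpG in the 250-base window was 0.823 in Irf1 and 0.694 in Stat2, against a median of 0.373 over all promoters. It was 0.474 in Ifit2, 0.369 in Rsad2, 0.324 in Isg15, 0.265 in Ifit1, 0.163 in Irf7, 0.113 in Oasl2 and 0.0697 in Ifit3. Irf1 and Stat2 were also the genes with both H3K18la and H3K4me3 in mESC-2i, as described below.

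Across all 24 lists, 87 of the 216 combinations of gene and list had a promoter peak. H3K18la marked 32 of 72 combinations (44.4%), where the mean over its 8 lists was 31.8% of all protein-coding genes. H3K27ac marked 27 of 45 (60.0%, against 43.2%), H3K4me3 22 of 36 (61.1%, against 58.5%) and H3K27me3 6 of 63 (9.52%, against 21.7%). The H3K4me3 share joins lists on both sides of their background, with all 9 genes in PIM and GAS and 1 and 3 in the stem cell lists. In 76 of the 87 at least 1 of the promoter peaks lay across a TSS. By mark, a promoter peak lay across a TSS in 28 of 32 H3K18la, 25 of 27 H3K27ac, 21 of 22 H3K4me3 and 2 of 6 H3K27me3 combinations. The active marks were thus mostly over the starts and H3K27me3 mostly beside them. Summits of the strongest peaks lay on both sides of the nearest start. Their signed median position (negative is upstream) was -49 bp for H3K18la, -39 bp for H3K27ac, -26 bp for H3K4me3 and -2938 bp for H3K27me3. Upstream and downstream positions offset each other in these medians, which are not distances. Single summits lay far from a start, as at -5966 bp for the H3K18la peak of Irf1 in mESC-2i. Irf1 was marked in 15 of the 24 lists, Stat2 and Isg15 in 12 each, Irf7, Ifit3 and Rsad2 in 9 each, Ifit1 in 8, Oasl2 in 7 and Ifit2 in 6.

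**Figure D1:**
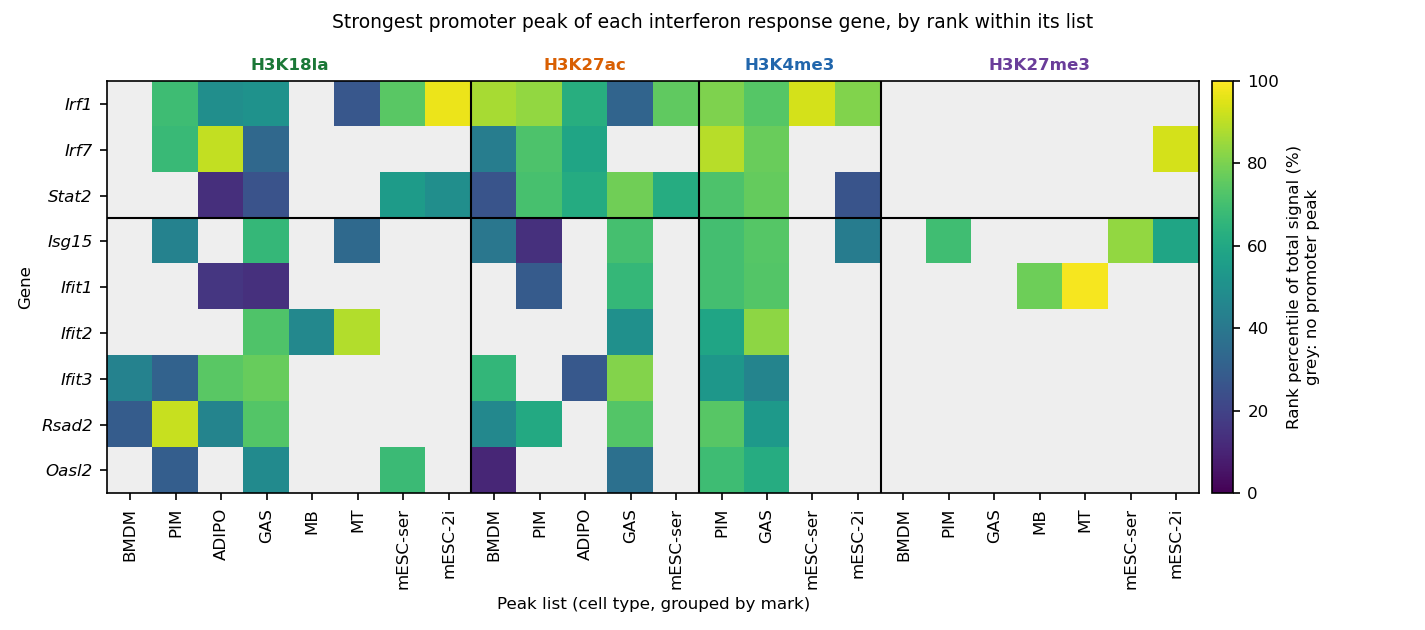
Rank percentile (colour, 0 to 100% of the peaks of the same list with a smaller total signal) of the strongest promoter peak of each gene (rows, regulators above the line and effectors below) in each of 24 peak lists (columns, grouped by mark), with grey where no promoter peak was called. The GAS and PIM columns of H3K4me3 are filled for all 9 genes, and the H3K27me3 columns hold 6 filled cells.

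The comparison of BMDM with PIM asks whether macrophages from cultured marrow and from injured muscle differ at these genes. In PIM 6 of the 9 genes had an H3K18la promoter peak (Irf1, Irf7, Isg15, Ifit3, Rsad2 and Oasl2), where 37.8% of protein-coding genes had one. In BMDM it was 2 genes, Ifit3 and Rsad2, where 18.5% of genes had one. The share of the 9 genes was thus 66.7% in PIM, above its background, and 22.2% in BMDM, near its background. The median rank percentile of the marked genes was 56.1 in PIM and 36.6 in BMDM, against 59.7 and 51.2 over all genes with a promoter peak. Gene by gene, 4 were marked in PIM and not in BMDM (Irf1, Irf7, Isg15 and Oasl2), 2 in both, 0 in BMDM and not in PIM and 3 in neither (Stat2, Ifit1 and Ifit2). Over all protein-coding genes 20.6% were marked in PIM and not in BMDM, 17.2% in both, 1.34% in BMDM and not in PIM and 60.8% in neither. The BMDM H3K18la list comes from 1 sample and the PIM list from 2 merged samples, while each H3K27ac list of the macrophages comes from 1 sample. H3K27ac was different. It marked 7 genes in BMDM (background 34.0%) and 6 in PIM (background 48.8%), with 5 in both (33.2% of all genes), Ifit1 in PIM and not in BMDM (15.5% of all genes), Ifit3 and Oasl2 in BMDM and not in PIM (0.777% of all genes) and Ifit2 in neither (50.5%).

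The size of the lists moved with this comparison. When the PIM H3K18la list was reduced by total signal to the 22.6 Mb of BMDM, Rsad2 was the 1 gene left, beside a background of 6.84%, and BMDM kept its 2 genes beside 18.5%. In PIM, Rsad2 was reached after 16.5 Mb of peaks, Irf1 after 37.3 Mb, Irf7 after 38.0 Mb, Isg15 after 51.5 Mb, Ifit3 after 57.2 Mb and Oasl2 after 57.9 Mb. For H3K27ac the lists were closer in size, 32.8 Mb in BMDM and 27.4 Mb in PIM, and reducing BMDM to 27.4 Mb removed Oasl2 and left 6 genes in each, beside backgrounds of 27.7% in BMDM and 48.8% in PIM. The window mattered for Irf7 and Isg15. In BMDM an H3K18la peak ended 117 bp outside the Irf7 promoter and another 41 bp outside the Isg15 promoter, both near the bottom of the list (rank percentiles 1.71 and 6.59), and with promoters of 2500 bp on each side, an alternative chosen after seeing the data, BMDM had 4 marked genes (background 19.2%) and PIM again 6 (background 38.6%).

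**Figure D2:**
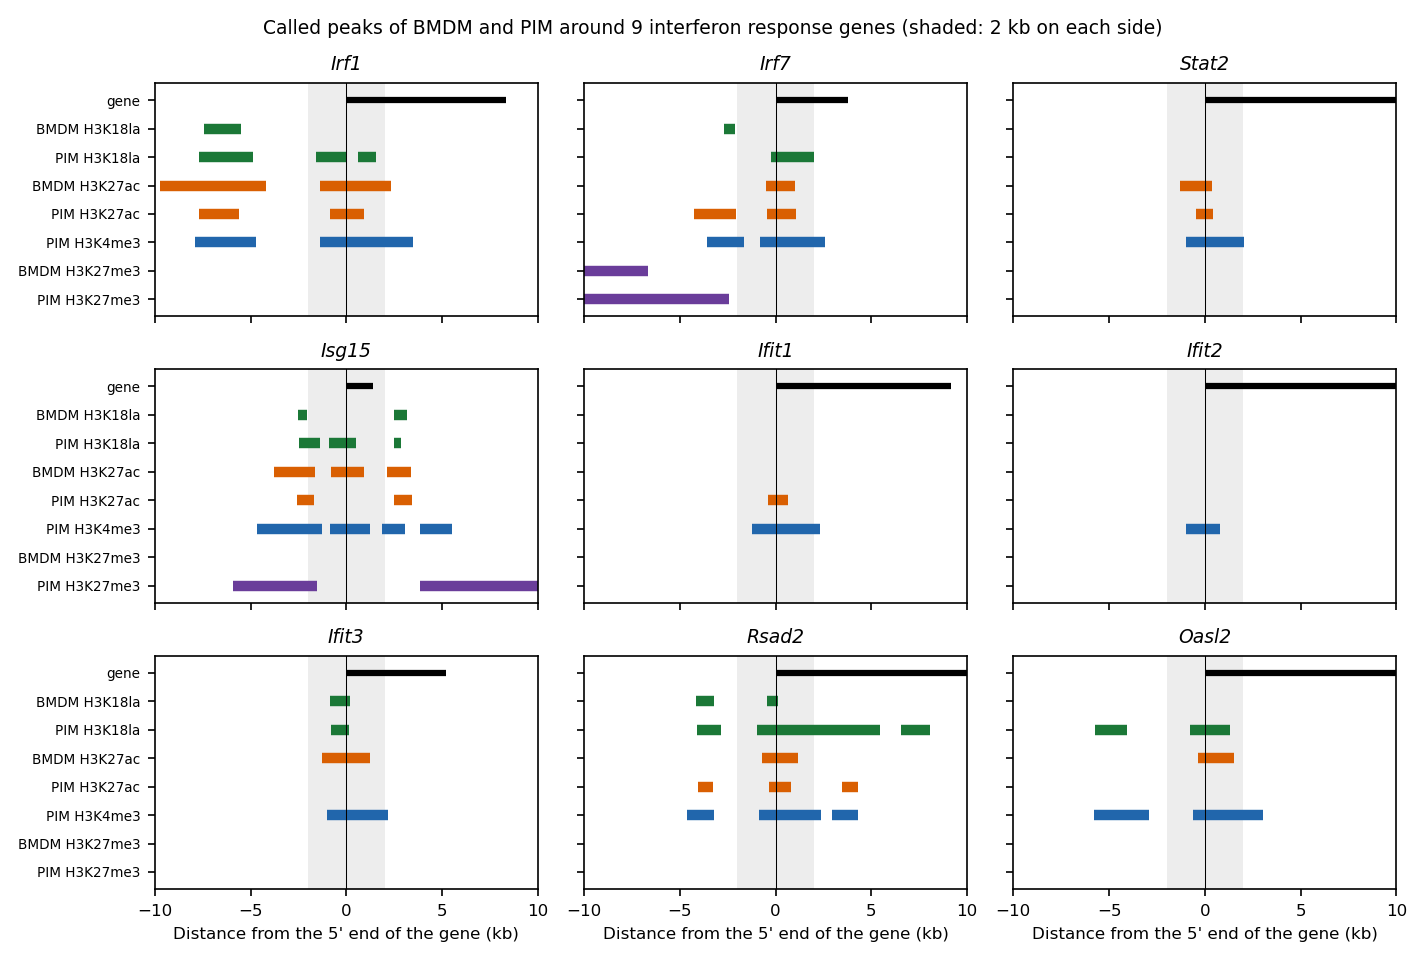
Called peaks of BMDM and PIM within 10 kb of the 5′ end of each gene, drawn in the direction of transcription, with distance in kb on the x axis, a row per peak list and the gene as a black bar; the shading covers 2000 bp on each side of the first start, and other annotated starts lie to its right. BMDM has an H3K18la bar over the start of Ifit3 and Rsad2, and PIM has H3K4me3 over the start of all 9 genes.

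Irf1 (chromosome 11, 53770014 to 53778374, plus strand, ENSMUSG00000018899.16) encodes a transcription factor that is switched on by interferon gamma and activates antigen presentation genes. H3K18la was called at its promoter in 6 of 8 cell types, all but BMDM and MB. The rank percentile was 97.1 in mESC-2i, 74.4 in mESC-ser, 69.0 in PIM, 51.1 in GAS, 49.5 in ADIPO and 27 in MT. The mESC-2i peak was 16151 bp wide and ran from 53757468 to 53773618, rank 585 of 19908, while the PIM peak was 1613 bp wide and ended at 53770065, just inside the gene. By total signal the stem cells thus held the highest ranks, followed by PIM, whereas by maximum signal PIM (74.9) stood above mESC-ser (69.0). In ADIPO and GAS the strongest peak lay inside the gene, near a start shared with Gm17334, and a second peak was at the promoter. By maximum signal the GAS percentile was 10.9.

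H3K27ac marked Irf1 in all 5 cell types, with percentiles of 86.8 in BMDM, 83.9 in PIM, 75.4 in mESC-ser, 62.8 in ADIPO and 32.3 in GAS. H3K4me3 marked it in all 4, with 93.6 in mESC-ser, 81.1 in mESC-2i, 80.6 in PIM and 73.5 in GAS, and H3K27me3 in none of 7. Irf1 was the 1 gene of the 9 with H3K4me3 in mESC-ser. BMDM thus had a strong H3K27ac peak of 3696 bp over the start with no H3K18la there. Its nearest H3K18la peak lay upstream, from -7.431 to -5.502 kb, at the 82.1st percentile. PIM had an H3K18la peak over it as well, from -7.694 to -4.87 kb, and H3K27ac and H3K4me3 were called there too. This upstream region was thus shared by both macrophage types, but was not particular to them. MB had an H3K18la peak 5.3 kb upstream at the 82.4th percentile, and the wide mESC-2i peak ran over the region. The gamma-activated sequence shown above lay inside a peak in all 6 H3K18la lists with a call, in 5 of 5 H3K27ac lists and in 4 of 4 H3K4me3 lists.

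Irf7 (chromosome 7, 141262706 to 141266481, minus strand, ENSMUSG00000025498.15) encodes the factor that drives large-scale production of type I interferon. H3K18la marked it in 3 cell types, with percentiles of 90.8 in ADIPO, 67.9 in PIM and 33.6 in GAS. The PIM peak of 2294 bp covered 53.8% of the gene together with its start. The ADIPO peak of 5846 bp reached over the 3′ end of the gene to the promoter of its neighbour Phrf1, and a second peak covered the start, so its rank is not of Irf7 alone. H3K27ac marked Irf7 at 72.0 in PIM, 58.6 in ADIPO and 42.5 in BMDM, and not in GAS, where the nearest H3K27ac peak was 33.2 kb away. BMDM and PIM had H3K27ac peaks of nearly the same width at the start, 1493 and 1519 bp. H3K4me3 marked it at 89.1 in PIM and 77.1 in GAS. In mESC-2i a 15757-bp H3K27me3 domain at the 93.6th percentile reached into the promoter from the side of Cdhr5 and Sct without covering the start. PIM (90.9th percentile) and BMDM (80.3rd) also had an H3K27me3 peak at Cdhr5 and Sct, ending 412 and 4657 bp outside the Irf7 promoter. In mESC-ser a weak H3K27me3 peak (4.55th percentile) lay 67 bp outside it.

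Stat2 (chromosome 10, 128270559 to 128292849, plus strand, ENSMUSG00000040033.16) encodes a signal transducer that is part of the ISRE-binding complex. It had no H3K18la promoter peak in BMDM, PIM, MB or MT. The percentiles were 54.8 in mESC-ser, 49.4 in mESC-2i, 25.7 in GAS and 13.3 in ADIPO, where the peak was 536 bp wide. The mESC-ser peak, from 128282574 to 128286675, lay at starts inside the gene and not at its 5′ end. H3K27ac marked Stat2 in all 5 cell types, at 78.4 in GAS, 71.0 in PIM, 62.1 in mESC-ser, 61.6 in ADIPO and 25.9 in BMDM. Both macrophage types thus held H3K27ac without H3K18la at this gene, and their nearest H3K18la peaks were 11.1 kb (BMDM) and 10.7 kb (PIM) upstream. H3K4me3 marked it at 76.4 in GAS, 72.1 in PIM and 26.1 in mESC-2i. The single ISRE core lay inside a peak in 3 H3K18la, 5 H3K27ac and 3 H3K4me3 lists. The promoter window is shared with Apof, so peaks there could belong to either gene.

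Isg15 (chromosome 4, 156199424 to 156200818, minus strand, ENSMUSG00000035692.6) encodes a small protein that is attached to other proteins like ubiquitin. H3K18la was called in PIM (44.3), GAS (66.7) and MT (34.3). The PIM peak of 1411 bp lay over the start and over the 3 ISRE cores, in this list alone among the 8 H3K18la lists. The GAS and MT peaks did not reach the start, and their summits were at -3691 and -2716 bp, in the promoter of AW011738. The same held for H3K27ac in PIM, where an 888-bp peak lay upstream at the 13.9th percentile, while BMDM had a 1688-bp peak over the start at the 39.6th percentile and GAS a 5022-bp peak over the whole gene at the 70.7th. H3K4me3 was called in PIM (70.2), GAS (73.8) and mESC-2i (41.8), and a second H3K4me3 peak covered the start in PIM and GAS, where the percentile is that of the stronger peak upstream. H3K27me3 was called in PIM (69.4), mESC-ser (83.6) and mESC-2i (58.8), with no peak over the start. Counts for Isg15 therefore include its neighbour, and with promoters of 1000 bp on each side its GAS H3K18la, PIM H3K27ac and mESC-2i H3K4me3 calls and all 3 H3K27me3 calls were lost.

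Ifit1, Ifit2 and Ifit3 encode related proteins built of tetratricopeptide repeats. Ifit1 binds foreign RNA that lacks the methylated cap of the cell's own messengers, and the others assemble with it. They lie in 1 cluster on chromosome 19, Ifit2 from 34550694 to 34576419 (ENSMUSG00000045932.12), Ifit3 from 34583531 to 34588731 (ENSMUSG00000074896.3) and Ifit1 from 34640871 to 34650009 (ENSMUSG00000034459.8), all on the plus strand. Ifit1bl1, Ifit3b and Ifit1bl2 lie between Ifit3 and Ifit1. Ifit3b is a close copy of Ifit3, and how reads that align to more than 1 place were treated is not given in the sources used here, so calls at either of them are uncertain.

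Ifit3 had H3K18la in BMDM, PIM, ADIPO and GAS, with percentiles of 44.3, 31.4, 74.4 and 76.7. The BMDM and PIM peaks took up almost the same bases, 34582656 to 34583704 and 34582713 to 34583664, and both held the ISRE cores. H3K27ac followed in BMDM (66.2), ADIPO (27.5) and GAS (81.3), and was not called in PIM, where the nearest peak was at Ifit3b, 23.4 kb downstream. The GAS H3K27ac peak of 8793 bp began inside the gene and did not cover the start. H3K4me3 was called in PIM (52.9) and GAS (45.2). Ranked by maximum signal, the H3K18la percentiles of Ifit3 were 19.2 in BMDM and 22.3 in PIM.

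Ifit2 had H3K18la in the 3 muscle lists and in neither macrophage list. H3K18la was at the 88.3rd percentile in MT, with a 6032-bp peak over the start, at 72.5 in GAS and at 46.5 in MB, where the peak began after the start. This was the 1 gene with H3K18la in MB, where 11.1% of genes had it. The nearest H3K18la peak was 29.6 kb upstream in BMDM and 22.9 kb upstream in PIM, where it belonged to the promoter of Lipa at the 95.5th percentile. H3K27ac was called at the promoter in GAS (50.2), and BMDM had a peak inside the gene, with its summit 19548 bp after the nearest start, at the 18.4th percentile. PIM had H3K4me3 at Ifit2 (58.9) as its single mark there, and GAS had it at 83.0.

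Ifit1 had H3K18la in ADIPO (15.9) and GAS (13.7), low in both lists. H3K27ac was called in GAS (66.5) and PIM (28.8) and not in BMDM, where the nearest peak was 31.7 kb upstream at Ifit3b. H3K4me3 was called in PIM (70.2) and GAS (73.1). MB and MT stood apart, with H3K27me3 over Ifit1. In MB a peak of 7548 bp at the 77.9th percentile covered the start, and in MT a domain of 52714 bp, rank 228 of 18566, ran over Ifit3b, Ifit1bl2 and all of Ifit1. The ISRE cores of Ifit1 thus lay in an H3K27me3 peak in MB and MT and in an H3K18la peak in ADIPO and GAS. The promoter is shared with Ifit1bl2, which is read from the opposite strand.

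Over the 103 kb of the cluster, H3K27me3 covered 41.8% in MT, 16.1% in MB and 4.19% in mESC-2i and no base in BMDM, PIM, GAS or mESC-ser. In MT H3K18la lay at the starts of Ifit2 and Ifit3b, and H3K27me3 began 58.17 kb from the Ifit2 start, at Ifit3b, and ran past Ifit1. H3K18la covered 15.0% in GAS, 9.78% in ADIPO, 8.87% in MT, 2.79% in PIM, 2.28% in MB, 2.15% in BMDM and 0.966% in mESC-2i. In mESC-ser no H3K18la, H3K27ac, H3K4me3 or H3K27me3 peak was called in the cluster. Ifit3b was the gene of the cluster with H3K18la in most lists, 5 of 8, beside 4 for Ifit3, 3 for Ifit2 and 2 for Ifit1.

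**Figure D3:**
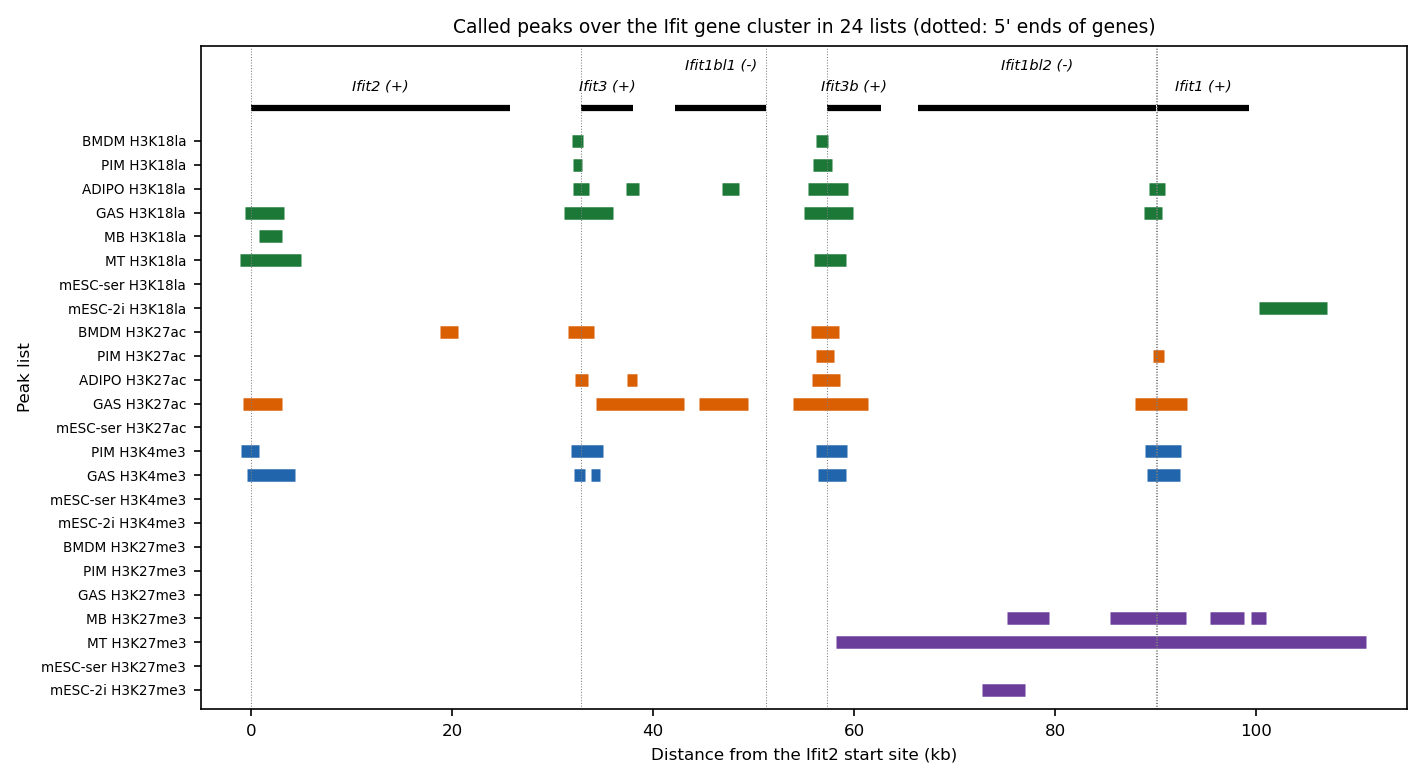
Called peaks (bars, coloured by mark) over the Ifit gene cluster in 24 lists (rows), with distance from the Ifit2 start in kb on the x axis, genes as black bars with their strand, and 5′ ends as dotted lines. The MT H3K27me3 domain of 52714 bp begins 58.17 kb from the Ifit2 start, and the MT H3K18la peak of 6032 bp lies over that start.

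Rsad2 (chromosome 12, 26442746 to 26456452, minus strand, ENSMUSG00000020641.16) encodes viperin, an enzyme that makes a chain-terminating nucleotide against viral polymerases. H3K18la was called in PIM (91.5), GAS (73.4), ADIPO (45.0) and BMDM (29.0). The PIM peak was 6427 bp wide and covered the start and the first 5.431 kb of the gene, and 50.9% of the gene lay under H3K18la in PIM. The BMDM peak was 588 bp wide and covered 1.12% of the gene. Both held the ISRE core, as did those of ADIPO and GAS. Both macrophage types also had an H3K18la peak upstream, from -4.164 to -3.194 kb in BMDM and from -4.129 to -2.839 kb in PIM. Rsad2 was thus the member with the highest H3K18la rank in PIM and the 1 that stayed in the reduced list.

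H3K27ac marked Rsad2 at 73.2 in GAS, 60.6 in PIM and 46.6 in BMDM, with widths of 5685, 1182 and 1866 bp. Relative to the median width of its own list, the H3K27ac peak was 1.24 times as wide in PIM and 0.873 times in BMDM, and the H3K18la peak was 3.98 times as wide in PIM and 0.642 times in BMDM. H3K4me3 was called in PIM (74.2) and GAS (54.1), and no H3K27me3 was called in any of 7 cell types.

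Oasl2 (chromosome 5, 114896936 to 114912234, plus strand, ENSMUSG00000029561.17) encodes an oligoadenylate synthetase-like protein of the antiviral response. H3K18la was called in mESC-ser (68.0), GAS (47.8) and PIM (29.7). The mESC-ser peak of 5365 bp began at 114905602, past the last annotated start at 114904430, and did not cover a start, while those of PIM (2063 bp) and GAS (1965 bp) covered the 5′ end. In PIM the percentile was 4.48 by maximum signal. H3K27ac was called in GAS (37.0) and BMDM (10.7), and in mESC-ser inside the gene alone. In PIM the nearest H3K27ac peak lay 14.7 kb downstream. H3K4me3 was called in PIM (68.9) and GAS (61.8). In BMDM the nearest H3K18la peak was 17.4 kb downstream, at the related gene Oasl1 and at the 78.0th percentile.

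Outside macrophages, whole muscle carried the most calls. All 9 genes had an H3K18la promoter peak in GAS (background 36.1%), and in 8 of them it covered a start, Isg15 being the exception. ADIPO had 6 (Irf1, Irf7, Stat2, Ifit1, Ifit3 and Rsad2, background 44.7%), MT 3 (Irf1, Isg15 and Ifit2, 34.8%), mESC-ser 3 (Irf1, Stat2 and Oasl2, 33.4%), mESC-2i 2 (Irf1 and Stat2, 37.8%) and MB 1 (Ifit2, 11.1%). The mean over these 6 lists was 4 genes. GAS was the widest in calls and not in rank, as the median percentile of its 9 genes was 51.1, against 61.4 over all genes with a promoter peak in that list. The GAS list covered 123 Mb, and reduced to 22.6 Mb it held none of the 9 genes, beside a background of 3.37%. The part that macrophages and endothelial cells of the tissue had in the GAS calls was not tested, and the 2 macrophage lists against the 6 others allow no exact two-sided permutation p below 0.0714.

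**Figure D4:**
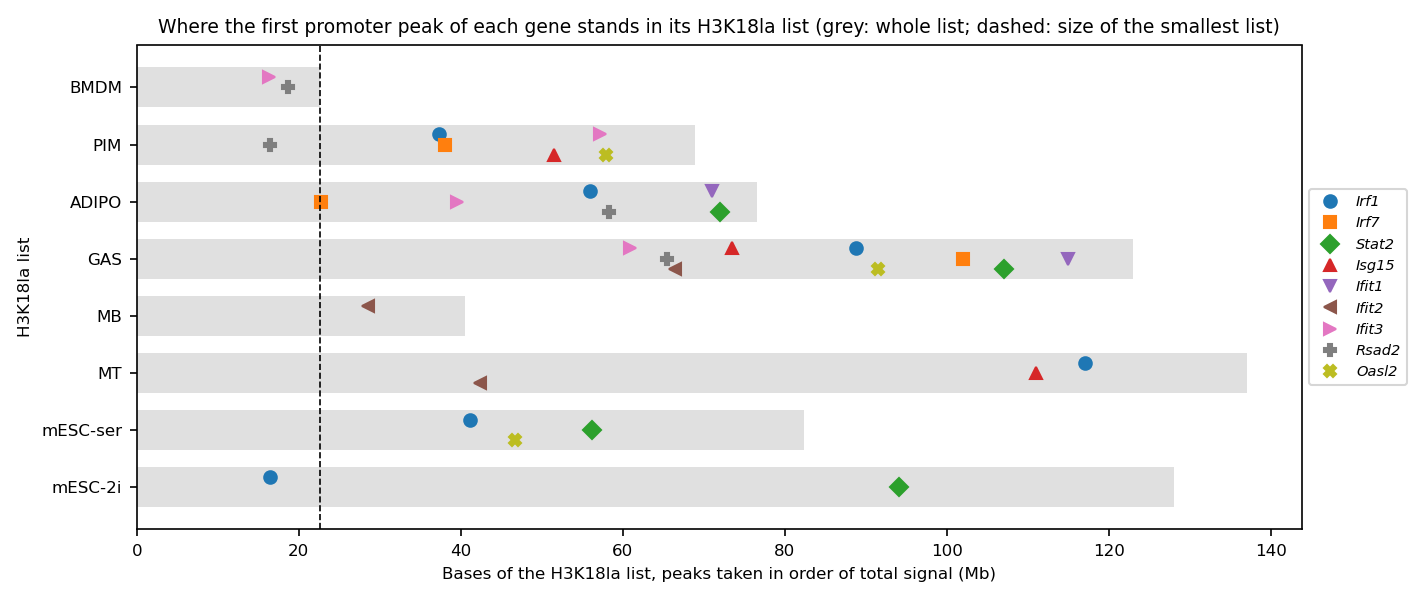
Bases of each H3K18la list in Mb (x axis) that had been used when the first promoter peak of a gene (symbols) was reached, with peaks taken in order of total signal, for 8 cell types (rows, whole list in grey, vertical offsets for legibility). The dashed line marks the smallest list at 22.6 Mb, to the left of which lie Ifit3 and Rsad2 in BMDM, Rsad2 in PIM and Irf1 in mESC-2i.

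H3K27ac outside macrophages marked 8 genes in GAS (all but Irf7, background 47.0%), 4 in ADIPO (Irf1, Irf7, Stat2 and Ifit3, background 46.1%) and 2 in mESC-ser (Irf1 and Stat2, background 40.2%). Within a cell type, H3K18la and H3K27ac met at 8 genes in GAS (30.4% of all genes), 4 in PIM (34.3%), 4 in ADIPO (39.6%), 2 in BMDM (16.4%) and 2 in mESC-ser (26.0%). In BMDM 5 genes had H3K27ac without H3K18la (Irf1, Irf7, Stat2, Isg15 and Oasl2), where 17.6% of all genes did, and no gene had H3K18la without H3K27ac. PIM had both patterns, with Ifit3 and Oasl2 under H3K18la without H3K27ac (3.51% of all genes) and Stat2 and Ifit1 under H3K27ac without H3K18la (14.4%).

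H3K4me3 was called at all 9 genes in PIM (background 59.4%) and in GAS (background 64.2%). In mESC-ser it marked Irf1 alone (background 48.8%), and in mESC-2i Irf1, Stat2 and Isg15 (background 61.8%). The percentiles ranged from 52.9 (Ifit3) to 89.1 (Irf7) in PIM and from 45.2 (Ifit3) to 83.0 (Ifit2) in GAS. The effectors Ifit1, Ifit2, Ifit3, Rsad2 and Oasl2 thus had H3K4me3 in PIM and in GAS and in neither stem cell list.

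H3K27me3 was called at 0 to 2 of these genes in each list. None of the 9 was marked in BMDM (background 19.2%) or GAS (23.9%), and 1 was in PIM (Isg15, 26.4%), MB (Ifit1, 12.5%), MT (Ifit1, 20.1%) and mESC-ser (Isg15, 27%). In mESC-2i there were 2 (Irf7 and Isg15, background 22.5%). The counts in MB and mESC-2i were thus near the background. Of the 64 pathway genes described below, 31 (48.4%) had H3K27me3 in mESC-ser and 20 (31.2%) in mESC-2i, above the backgrounds of 27% and 22.5%. The pathway share was below the background in BMDM (3.12%), PIM (7.81%) and GAS (17.2%), and slightly above it in MB and MT. Of the 6 calls, the 2 at Ifit1 covered a start, and all 6 peaks also overlapped the promoter of another gene. Irf1, Stat2, Ifit2, Ifit3, Rsad2 and Oasl2 had no H3K27me3 promoter peak in any of the 7 lists, and Ifit1, Ifit2, Ifit3 and Rsad2 had no promoter peak of any mark in either stem cell medium.

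**Figure D5:**
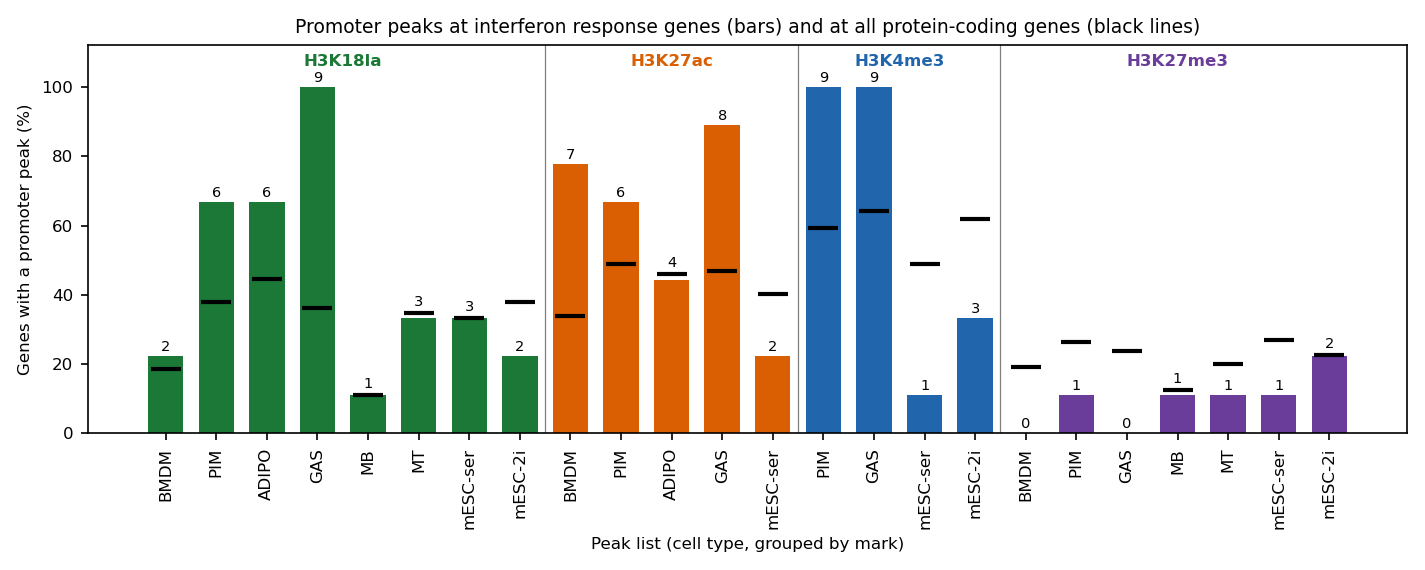
Share of the 9 interferon response genes (bars, with the number of genes above) and of all 21755 protein-coding genes (black lines) that had a promoter peak in each of 24 lists, grouped by mark, in percent. For H3K18la the bars stand above the line in BMDM (2 genes), PIM (6), ADIPO (6) and GAS (9), and at or below it in MB, MT and the stem cells.

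The wider pathway was read from 64 genes in 7 lists of ligands and receptors, kinases and factors, sensors, antiviral effectors, GTPases, feedback inhibitors, and chemokines with antigen presentation. In PIM 55 of the 64 (85.9%) had an H3K18la promoter peak and in BMDM 21 (32.8%), against the backgrounds of 37.8% and 18.5% given above. GAS had 45 (70.3%, background 36.1%) and ADIPO 44 (68.8%, background 44.7%), so a share above the background was not particular to PIM. There were 35 with a peak in PIM and not in BMDM, 20 with a peak in both and 8 in neither. H3K27ac marked 58 in PIM (90.6%, background 48.8%) and 48 in BMDM (75.0%, background 34.0%). At equal bases it marked 58 in PIM and 40 in BMDM (62.5%, background 27.7%). For H3K18la, reduced to the size of the smallest list, PIM kept 12 of the 64 with H3K18la (18.8%, background 6.84%) and BMDM its 21 (32.8%, background 18.5%).

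The counts by gene list are from the full peak lists, with backgrounds of 37.8% in PIM and 18.5% in BMDM. The totals at equal bases, 12 of the 64 in PIM and 21 in BMDM, are not split by gene list here. H3K18la marked 17 of 19 antiviral effectors in PIM and 6 in BMDM. It marked 9 and 1 of 10 genes of chemokines and antigen presentation, 7 and 2 of 9 nucleic acid sensors, and 6 and 1 of 7 interferon-inducible GTPases. Of the 10 kinases and transcription factors 8 were marked in PIM and 6 in BMDM, of 6 ligands and receptors 5 and 3, and of 3 feedback inhibitors 3 and 2. Genes with a high PIM percentile and no BMDM peak included the chemokine gene Cxcl11 (90.9), the immunity-related GTPase gene Irgm1 (90.6), Parp14 (90.4), the receptor subunit gene Ifnar2 (86.1) and the kinase gene Jak1 (84.3). Of 5 neutrophil markers 3 (S100a8, Mpo and Ly6g) had H3K18la in PIM and 1 (S100a8) in BMDM, beside the same backgrounds of 37.8% and 18.5%. S100a9 and Elane had none in either. ADIPO had 3 of these 5 markers as well, beside a background of 44.7%. The part of neutrophils in the PIM calls was not tested.

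Over the 24 lists, with 0 where no promoter peak was called, the protein-coding genes outside the 9 whose percentiles followed the mean of the 9 most closely were Samhd1 and Ikzf2 (Pearson r = 0.92 each), Unc45a and Stard5 (0.91 each) and Wwp1 (0.90). Samhd1 breaks down nucleotides and restricts retroviruses. The 9 genes themselves followed their own mean with r from 0.47 (Ifit1) to 0.84 (Rsad2), with 0.52 for Irf1, 0.64 for Irf7 and 0.69 for Stat2, which each are part of that mean. These values are descriptions over 24 lists that share cell types and differ in size.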

How the data were processed

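CUT&Tag libraries of H3K18la, H3K27ac, H3K4me3 and H3K27me3 were made from 41 samples, and the authors deposited 24 peak lists, 1 for each combination of cell type and mark. Per the submitters' processing notes, Trim Galore 0.6.6, Bowtie2 2.4.4, SAMtools 1.13, bedtools 2.30 and SEACR 1.3 were used with the build mm10. The authors called peaks with SEACR in stringent mode, keeping the top 1% of regions of the coverage of merged replicates. The deposited values are the total signal of each peak (the sum of coverage over its bases) and its maximum signal, and neither is scaled for depth. The treatment of duplicates is not given in the sources used here. Removal of blacklisted regions is described for later steps and not for these lists. Sequencing depth was not analysed here, and no interval or floor could be given. For stem cells, H3K18la, H3K27me3 and H3K4me3 each have a list named without its medium, and these were read as mESC-ser. For H3K18la the mESC-ser sample descriptions name the list in that form.

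Peaks were overlapped with promoters (2000 bp on each side of every TSS, overlap of at least 1 bp) and gene bodies of GENCODE M21, which holds 53843 genes, 21755 of them protein-coding, and 130677 transcript starts on chromosomes 1 to 19 and X. For each gene and list the strongest promoter peak by total signal gave the width and the rank. The share of protein-coding genes with a promoter peak was the background. With 1 pooled list a group there was no test. Promoter sequences came from RefSeq (GRCm38.p6), and 9 of 9 genes matched. Overlaps were checked against bedtools 2.31.1 on simulated peaks. Python 3.11.15, numpy 2.4.6, pandas 2.3.3 and matplotlib 3.10.9 were used.

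Text names all 9 genes, pathway genes among the 6 with the highest PIM rank and no BMDM call (some pathway results are not reported here), and the 5 genes most like the mean of the 9. The genes and lists were chosen with earlier results of these data known. Alternatives were a promoter of 1000 bp, the 5′ end of the gene alone, an overlap of 200 bp, the gene body added, the 5000 strongest peaks, equal bases in BMDM and PIM, ranks by maximum signal and a background of all genes. After seeing the data, equal bases in all lists of a mark, promoters of 2500 bp and the GAS counts were added.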

Additional observations from a re-analysis of the deposited data

How the results depend on the processing

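Calls rested on how far down a list was read. With the 5000 strongest peaks of each list, H3K18la marked 0 of the 9 genes in BMDM (2 with all peaks; background now 4.72%), 1 in PIM (6; 7.69%) and 0 in GAS (9; 8.3%), with a mean of 0.667 outside macrophages (4; 4.51% to 14%), and H3K27ac marked 2 in BMDM (7; 16.0%) and 1 in PIM (6; 19.1%). All genes were thus called less often at this setting, not these 9 alone. At equal bases H3K18la marked 1 gene in PIM, whether 2 or all 8 lists were reduced. With all 8 reduced, an alternative chosen after seeing the data, the counts were 0 in GAS, ADIPO, MB, MT and mESC-ser, with backgrounds of 2.31% to 5.54%, and 1 in mESC-2i (3.75%), and H3K27ac counts were 0 in ADIPO (19%) and GAS (4.27%). Promoters of 1000 bp gave a mean of 0 H3K27me3 genes in macrophages (0.5) and 0.6 elsewhere (1). Promoters of 2500 bp, also added later, gave 4 H3K18la genes in BMDM (background 19.2%) and a mean of 1 for H3K27me3 in macrophages.

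The 5′ end alone, an overlap of 200 bp and the added gene body each left 8 of 8 counts within 1.5 times their value. At equal bases the H3K18la counts went from 6 genes in PIM and 2 in BMDM to 1 and 2, and the backgrounds from 37.8% and 18.5% to 6.84% and 18.5%, so the order of both turned together. Ranking by maximum signal moved some macrophage percentiles little, as from 39.6 to 38.5 for Isg15 H3K27ac in BMDM, and others far, as from 29.7 to 4.48 for Oasl2 H3K18la in PIM, and a background of all annotated genes moved 18 of 24 shares by over 1.5 times. Replicates were merged before peaks were called, so no replicate could be left out. No paired analysis was possible because each group has a single list and no result comes from a test.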
